A study of Mus musculus with 2 samples.

Results

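Il9r, Snrnp25, Rhbdf1, Mpg and Nprl3 are the 5 genes that lie in a row beside the alpha globin cluster on mouse chromosome 11, and they were chosen by name for that position. Each had 1 row in the gene tables, so they are 5 of 43346 Ensembl gene rows. Their 39 annotated transcripts are 39 of 103639 transcript rows. The data are total RNA sequencing of MEL cells, a mouse erythroleukemia line that starts to make hemoglobin under dimethyl sulfoxide (DMSO), kept in 2% DMSO for 5 days. There were 2 libraries of this 1 condition, which the labels number replicate 2 and replicate 1, and no untreated library was analysed here. The labels cite 1 biosample record for both libraries, and their spread may therefore be technical in part. MEL is 1 immortalized leukemic line and not a primary red cell precursor.

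The alpha globin genes are switched on by a group of distant enhancers, and most of these lie in introns of Nprl3, the flanking gene nearest to the cluster. The flanking genes themselves have roles outside hemoglobin and most are active in many tissues, and active intronic enhancers of this locus can also start RNAs of their own. Nprl3 encodes a subunit of GATOR1, which restrains mTORC1 when amino acids are scarce. Mpg encodes the glycosylase that removes methylated purines from DNA, and Snrnp25 a protein of the U11/U12 particle that recognises the rare minor introns. Rhbdf1 encodes iRhom1, an inactive rhomboid that escorts the protease ADAM17 to the cell surface. Il9r encodes the receptor chain that binds interleukin 9 and signals together with the common gamma chain, Il2rg.

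On GRCm38, Il9r (ENSMUSG00000020279.6) lies at chr11:32187541-32200279 on the minus strand. Snrnp25 (ENSMUSG00000040767.6) lies at chr11:32205415-32208984 on the plus strand. Rhbdf1 (ENSMUSG00000020282.14) lies at chr11:32209585-32222300 on the minus strand. Mpg (ENSMUSG00000020287.11) lies at chr11:32226505-32232700 on the plus strand. Nprl3 (ENSMUSG00000020289.11) lies at chr11:32225628-32267707 on the minus strand, and all 6196 bases of Mpg are inside it on the opposite strand. The 5 genes span 80.2 kb. Only 600 bases separate Snrnp25 from Rhbdf1, against 8692 bases from the start of Nprl3 to the start of Hba-x, the embryonic alpha-like globin gene.

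The promoters of 4 of the 5 genes are shown because they are the start regions of genes whose levels are set against those of the alpha globin genes. They are the 250 bases before the RefSeq start on GRCm38.p6, with GATA hexamers and GC boxes in capitals. Rhbdf1 had no matched entry.
Il9r promoter, chr11:32200280-32200529, minus strand: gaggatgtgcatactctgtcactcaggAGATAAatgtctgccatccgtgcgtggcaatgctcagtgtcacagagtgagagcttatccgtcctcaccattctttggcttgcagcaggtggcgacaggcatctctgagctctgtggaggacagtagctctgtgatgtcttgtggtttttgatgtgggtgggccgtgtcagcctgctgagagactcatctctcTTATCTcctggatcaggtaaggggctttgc
Snrnp25 promoter, chr11:32205165-32205414, plus strand: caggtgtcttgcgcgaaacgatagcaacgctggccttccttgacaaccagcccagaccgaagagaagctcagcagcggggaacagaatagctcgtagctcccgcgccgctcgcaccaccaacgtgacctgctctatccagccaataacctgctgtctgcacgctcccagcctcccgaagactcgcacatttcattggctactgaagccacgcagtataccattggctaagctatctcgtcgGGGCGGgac
Mpg promoter, chr11:32226255-32226504, plus strand: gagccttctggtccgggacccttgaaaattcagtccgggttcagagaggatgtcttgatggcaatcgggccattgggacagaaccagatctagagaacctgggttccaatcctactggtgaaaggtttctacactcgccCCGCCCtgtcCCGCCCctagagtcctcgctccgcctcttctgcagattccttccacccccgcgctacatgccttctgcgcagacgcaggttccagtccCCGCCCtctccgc
Nprl3 promoter, chr11:32267708-32267957, minus strand: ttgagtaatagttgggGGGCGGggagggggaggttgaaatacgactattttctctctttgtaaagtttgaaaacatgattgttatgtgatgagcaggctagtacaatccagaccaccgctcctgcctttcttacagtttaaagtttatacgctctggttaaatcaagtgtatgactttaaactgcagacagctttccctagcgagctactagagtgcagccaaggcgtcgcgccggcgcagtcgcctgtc
A GATA hexamer was either AGATAA or the variant TGATAA, with TTATCT or else TTATCA for matches on the other strand. A GC box was GGGCGG or its complement CCGCCC, and a TATA match was TATAAA or its complement TTTATA. No 2 of these matches overlapped. Il9r had 2 GATA hexamers, at 223 and 30 bases before its start, and no GC box. Among 32851 mouse promoters of this length, 16.6% held at least 1 such hexamer and 2.72% held 2 or more. Snrnp25, Mpg and Nprl3 had no GATA hexamer and had 1, 3 and 1 GC boxes, a motif in 32.7% of all promoters. Nprl3 also had 1 TATA match, a motif in 12.4% of all promoters. The Snrnp25 promoter was 58.4% G or C with 19 CpG pairs and the Mpg promoter 59.6% with 14 pairs, against medians of 52.4% and 6.00 over all promoters. Nprl3 was lower in G and C, at 47.2% with 11 pairs. These matches are descriptions of the letters and not measured binding.

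Estimated counts summed to 90856320 in replicate 2 and 65109488 in replicate 1, and a count of 0 allows up to 0.0330 and 0.0461 CPM (counts scaled to the library total) in them. Protein-coding genes held 12.9% of all TPM (transcript abundance scaled for length and library) in replicate 2 and 13.5% in replicate 1, so TPM of every messenger RNA depends on the other RNAs in the tables. Erythroid markers were expressed: each of 8 reached 1 TPM in both libraries, with means from 15.3 to 2986.3 TPM. Of 14 markers of other blood and tissue cells, only Pf4, a platelet granule gene, was at 1 TPM or more in both libraries, at 24.7 TPM in replicate 2 and 34.1 TPM in replicate 1. The other 13 averaged at most 0.375 TPM, and Ly6g, Ms4a1 and Epcam were among those with 0 counts in both. All 8 erythroid markers had a higher scaled count in replicate 2 at an adjusted p under 0.05 in an exact binomial test. Of them, Alas2, Hba-a1 and Hbb-bs were also over 2-fold higher there. Over all genes tested, 31.5% were higher in replicate 2 by the adjusted p and 2.43% also by 2-fold or more. This test covers counting error only. In such bulk RNA, more cells of a type and more RNA per cell cannot be told apart.

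All 5 flanking genes were expressed, with Snrnp25 highest and Rhbdf1 lowest, a ratio of 6.15 ± 0.0291 between them (SD, n = 2). At 1 TPM or more in both libraries, they were 5 of 5, against 37.3% of all protein-coding rows (8003 of 21474). Snrnp25 had 34.3 TPM in replicate 2 and 34.9 TPM in replicate 1, a mean of 34.6 ± 0.424 TPM (SD, n = 2). Il9r had 13.5 TPM in replicate 2 and 17.1 TPM in replicate 1, a mean of 15.3 ± 2.56 TPM. It had the widest spread of the 5, and its range still lay below Snrnp25 and above the other flanking genes.

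Mpg had 8.90 TPM in replicate 2 and 9.02 TPM in replicate 1, a mean of 8.96 ± 0.0849 TPM (SD, n = 2). Nprl3 had 7.09 TPM in replicate 2 and 7.44 TPM in replicate 1, a mean of 7.27 ± 0.247 TPM. Rhbdf1 had 5.59 TPM in replicate 2 and 5.65 TPM in replicate 1, a mean of 5.62 ± 0.0424 TPM. The order Snrnp25, Il9r, Mpg, Nprl3, Rhbdf1 was thus the same in both libraries, and no neighbours in it overlapped. With only 2 values per gene the SD is itself uncertain, and no test between levels of different genes was made.

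Set against each other within a library, the TPM levels of Snrnp25, Mpg and Rhbdf1 kept nearly fixed proportions. Snrnp25 over Mpg was 3.85 in replicate 2 and 3.86 in replicate 1, and Mpg over Rhbdf1 was 1.59 and 1.60 in the same libraries. Mpg over Nprl3 was 1.26 in replicate 2 and 1.21 in replicate 1. Snrnp25 over Il9r was less steady, at 2.53 in replicate 2 and 2.03 in replicate 1. By scaled counts, Rhbdf1 kept less close to the others: log2 ratios of replicate 2 over replicate 1 were 0.25 for Snrnp25, 0.24 for Mpg and 0.16 for Rhbdf1. The last step of the order depended on how length was counted. Nprl3 over Rhbdf1 was 1.29 ± 0.0343 by TPM, which weights the lengths of the transcripts present. By CPM per kb of merged exons, a scale chosen after the data were seen, the ratio was 0.528. Merged exons of Nprl3 come to 7572 bases, and its TPM rests on effective lengths of 1580.1 bases in replicate 2 and 1519.3 bases in replicate 1.

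Ranked by mean TPM among 21474 protein-coding rows, Snrnp25 was number 440, in percentile 98.0. Il9r was number 1087 (percentile 94.9) and Mpg number 1978 (percentile 90.8). Nprl3 was number 2466 (percentile 88.5) and Rhbdf1 number 3206 (percentile 85.1). Many of the rows are silent in these cells: the median of the 8003 expressed genes was 4.44 TPM, below all 5. Rescaled so that nuclear protein-coding genes alone make up the total, the means became 267 ± 4.27 TPM for Snrnp25, 118 ± 16.4 for Il9r, 69.2 ± 1.30 for Mpg, 56.1 ± 0.325 for Nprl3 and 43.4 ± 0.900 for Rhbdf1 (SD, n = 2).

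Genes of like level were found by the distance of log2 TPM over the 2 libraries among 12467 protein-coding genes. Nearest to Il9r were Mrps12, a mitochondrial ribosomal protein gene, and Srsf10, a splicing factor gene. Nearest to Snrnp25 were Clta, a clathrin light chain gene, and Hnrnph1, an RNA-binding protein gene. For Rhbdf1 they were Dnm1l and Kif2c, for Mpg they were Nrd1 and Tpm1, and for Nprl3 they were Zfp672 and Mms22l. Such neighbours were common: within 0.1 on the log2 scale there were 8 genes for Snrnp25 and between 38 and 64 for each of the others.

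**Figure D1:**
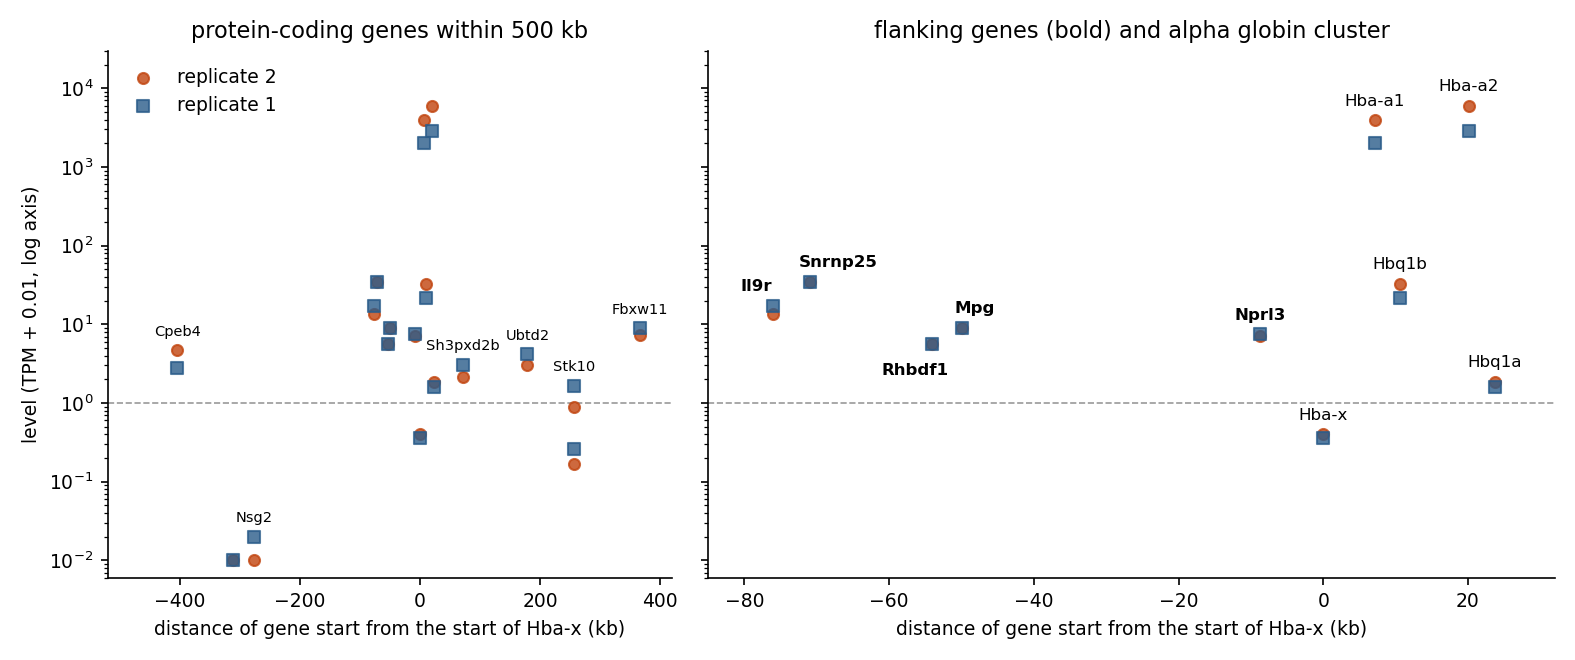
Level of each protein-coding gene (TPM + 0.01, log axis) against the distance of its start from the start of Hba-x in kb, for replicate 2 (circles) and replicate 1 (squares), within 500 kb on the left and close to the cluster on the right; the dashed line is at 1 TPM. The 5 flanking genes (bold) sit between 5.59 and 34.9 TPM with both libraries nearly on top of each other except for Il9r, and the adult genes Hba-a1 and Hba-a2 stand far above them, higher in replicate 2.

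Within 500 kb of the start of Hba-x, the run of flanking genes was expressed throughout, and 7 of 8 other genes that are not globins averaged less than any of them. The flanking genes' median was 8.96 TPM with 5 of 5 expressed, against 1.93 TPM and 4 of 8 for the other protein-coding genes of the window that are not globins. On the far side of the flanking genes, Nsg2 averaged 0.00500 TPM and 4930524B15Rik had 0 TPM in both libraries. Cpeb4, which encodes a regulator of cytoplasmic polyadenylation, lay 404 kb from Hba-x on the same side and had 4.66 TPM in replicate 2 and 2.77 TPM in replicate 1. On the globin side, the nearest gene was Sh3pxd2b, a podosome adaptor gene at 71.4 kb, with 2.16 TPM in replicate 2 and 3.04 TPM in replicate 1. Fbxw11, a ubiquitin ligase subunit gene at 366 kb, averaged 8.07 TPM and was the only one of these 8 within the range of the flanking genes. Ubtd2 averaged 3.59 TPM, Stk10 1.25 TPM and Efcab9 0.205 TPM, and the 5 noncoding genes and pseudogenes of the window had a median of 0 TPM.

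The adult alpha globin genes Hba-a1 and Hba-a2 were far more abundant than their neighbours. Their summed level was 9930.9 TPM in replicate 2 and 4866.7 TPM in replicate 1. The 5 flanking genes together had 69.4 TPM in replicate 2 and 74.1 TPM in replicate 1, which is 0.698% of that globin level in replicate 2 and 1.52% in replicate 1. Against single neighbours, Hba-a1 plus Hba-a2 came to 290 times the level of Snrnp25 in replicate 2 and 140 times in replicate 1. They came to 1776.6 times the level of Rhbdf1 in replicate 2 and 861 times in replicate 1. Hba-x, the cluster gene nearest to Nprl3, had 0.390 TPM in replicate 2 and 0.350 TPM in replicate 1, below every flanking gene. The theta globin gene Hbq1b had 32.6 TPM in replicate 2 and 21.9 TPM in replicate 1, near Snrnp25 in replicate 2 and below it in replicate 1, and its paralog Hbq1a had 1.86 TPM and 1.59 TPM in the same libraries.

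Like most genes tested, the flanking genes were not called as 2-fold different between the libraries, while both adult alpha globin genes were. Scaled counts were compared by an exact two-sided binomial test with Benjamini-Hochberg adjustment over 15272 genes, after TMM scaling, and all 5 flanking genes passed the minimum of 10 counts. The test sets the reads of 2 libraries of 1 condition against each other, covers counting error only and says nothing of conditions. At an adjusted p under 0.05 and 2-fold, 0 of 5 flanking genes were called, against 6.50% of all genes tested (992), which splits into 2.43% higher and 4.07% lower in replicate 2. The count was also 0 with DESeq2 size factors and with total counts, and 4 of 5 had an unadjusted p under 0.05, as did 64.6% of all genes tested (9863 of 15272).

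Il9r had 12237 estimated counts in replicate 2 and 8742 in replicate 1. Its log2 ratio after scaling, replicate 2 over replicate 1, was 0.04, with an exact 95% interval from -0.00425 to 0.0752 and an adjusted p of 0.12 in the exact binomial test. Snrnp25 had 8543 counts in replicate 2 and 5249 in replicate 1, a log2 ratio of 0.25 (0.203 to 0.303). Mpg had 5206 counts in replicate 2 and 3236 in replicate 1, a log2 ratio of 0.24 (0.173 to 0.300). Nprl3 had 4486 counts in replicate 2 and 2726 in replicate 1, a log2 ratio of 0.27 (0.200 to 0.338).

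Rhbdf1 had 5854 counts in replicate 2 and 3839 in replicate 1, a log2 ratio of 0.16 (0.10 to 0.218). These last 4 genes were higher in replicate 2 by the adjusted p alone, the largest of which was 3.2e-07 in the exact binomial test for Rhbdf1. By the same rule 62.0% of all genes tested were called, 31.5% higher in replicate 2 and 30.5% lower. Erythroid markers were higher in replicate 2 as well, with log2 ratios from 0.18 for Klf1 to 1.78 for Alas2, and their part in the ratios of the flanking genes was not tested. The folds were small: the median size of a log2 ratio over 12107 protein-coding genes was 0.253, and 77.5% lay within 0.5 of 0. Among those genes the ratios fell at percentile 52.3 for Il9r, 65.7 for Rhbdf1, 73.2 for Mpg, 74.7 for Snrnp25 and 75.8 for Nprl3.

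Hba-a1 had a log2 ratio of 1.15 (exact 95% interval 1.14 to 1.15) and Hba-a2 one of 1.34 (1.34 to 1.35), and both were called. Hbq1b had 0.83 (0.764 to 0.904), Hbq1a 0.49 (0.217 to 0.760) and Hba-x 0.45 (-0.0371 to 0.958), none of them called. The intervals of all 5 flanking genes lay below those of Hba-a1, Hba-a2 and Hbq1b. The interval of Hba-x, with 101 counts in replicate 2 and 54 in replicate 1, overlapped all 5, and that of Hbq1a overlapped all but Il9r. Outside the cluster, the called gene within 500 kb was Cpeb4, with a log2 ratio of 1.14. The authors' posterior standard deviation of the count was 0.00 for each flanking gene in both libraries. It was 828.94 counts in replicate 2 and 529.70 in replicate 1 for each of Hba-a1 and Hba-a2, near-identical copies whose reads can be exchanged.

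On the TPM scale the direction turned: the log2 ratio was -0.34 for Il9r, -0.07 for Nprl3, -0.03 for Snrnp25 and -0.02 for Rhbdf1 and Mpg. The median of the 8003 expressed genes was itself shifted by -0.256 on that scale. Relative to this shift, Il9r stood at -0.09 and the others between 0.19 and 0.24, so 4 of the 5 again lay above the median gene.

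**Figure D2:**
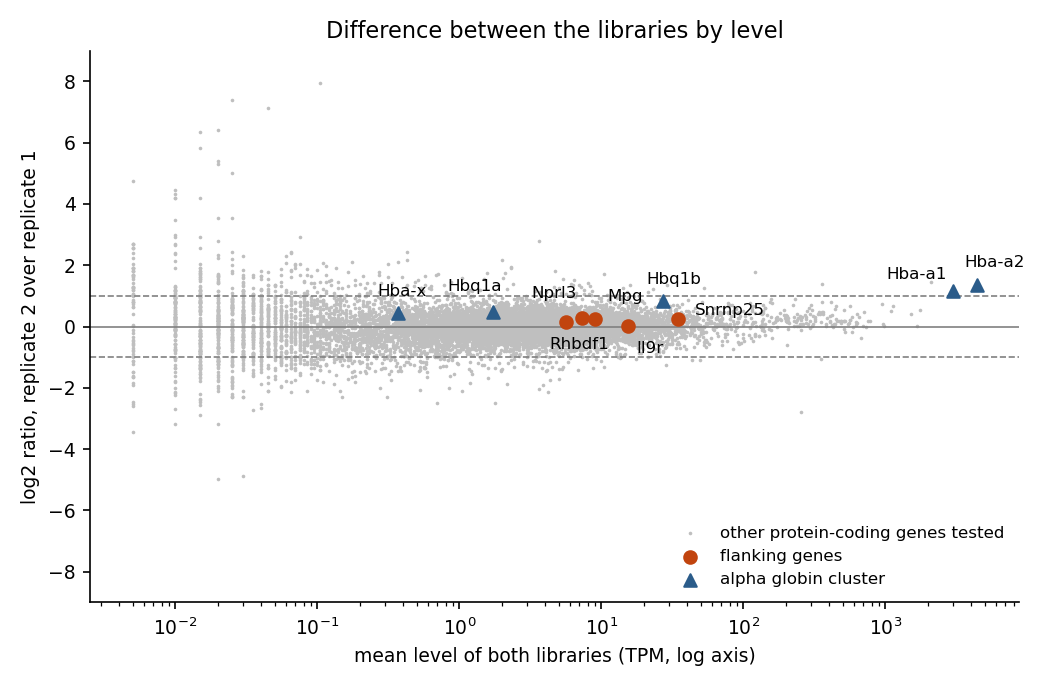
Log2 ratio of scaled counts, replicate 2 over replicate 1, against mean level (TPM, log axis) for 12092 protein-coding genes tested with a level above 0 (grey), the 5 flanking genes (circles) and the alpha globin cluster (triangles); dashed lines mark 2-fold. The flanking genes lie between 0.04 and 0.27, inside the grey cloud, and Hba-a1 and Hba-a2 lie above the 2-fold line.

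Among the 5, Nprl3 had the smallest share of its RNA in protein-coding transcripts. The percent of a gene's TPM in each annotated transcript, as the authors deposited it, was compared with 6057 expressed protein-coding genes that have 2 or more transcripts. Those genes were not matched for the number of annotated transcripts, of which Nprl3 has 16, with 3 annotated as protein-coding. Transcripts annotated as protein-coding held 20% of Nprl3 in replicate 2 and 14.7% in replicate 1, against a median of 88.0% over those genes, which is percentile 1.52. Retained-intron transcripts held 31.5 ± 2.04% of Nprl3 (SD, n = 2), transcripts annotated for nonsense-mediated decay 24.4 ± 0.930% and processed transcripts without a reading frame 26.7 ± 2.69%. The median gene had 3.55% in retained-intron transcripts and 0% in decay transcripts. Nprl3 stood at percentile 89.5 for the retained-intron share and 95.8 for the decay share, less far out than for the coding share. The make-up of Nprl3 depended on the scale. By estimated counts, chosen after the data were seen and not corrected for length, decay transcripts held most, at 46.0 ± 0.611%, and coding ones 30 ± 5.31%. Retained-intron transcripts then held 11 ± 1.05%, at percentile 81.3, and processed transcripts 13 ± 4.87%. The coding share stayed low on that scale too, at percentile 1.58, where the median gene had 95.3%.

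The other flanking genes were mostly protein-coding RNA. Snrnp25 had 92.7% in protein-coding transcripts in replicate 2 and 90.9% in replicate 1. Il9r had 76.0% in replicate 2 and 70.9% in replicate 1, and Rhbdf1 74.4% in replicate 2 and 69.2% in replicate 1. Mpg had 70.9% in replicate 2 and 68.6% in replicate 1. Except for Snrnp25, at percentile 56.9, these shares were below the median gene, at percentiles 29.3 for Il9r, 27.5 for Rhbdf1 and 25.8 for Mpg. Retained-intron shares were 20.2 ± 1.72% for Il9r, 19.0 ± 0.863% for Rhbdf1, 14.6 ± 2.27% for Mpg and 1.27 ± 0.436% for Snrnp25. By estimated counts they were 4.14% for Il9r and 6.69% for Mpg, whereas Rhbdf1 at 19.6% and Snrnp25 at 1.25% moved little.

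**Figure D3:**
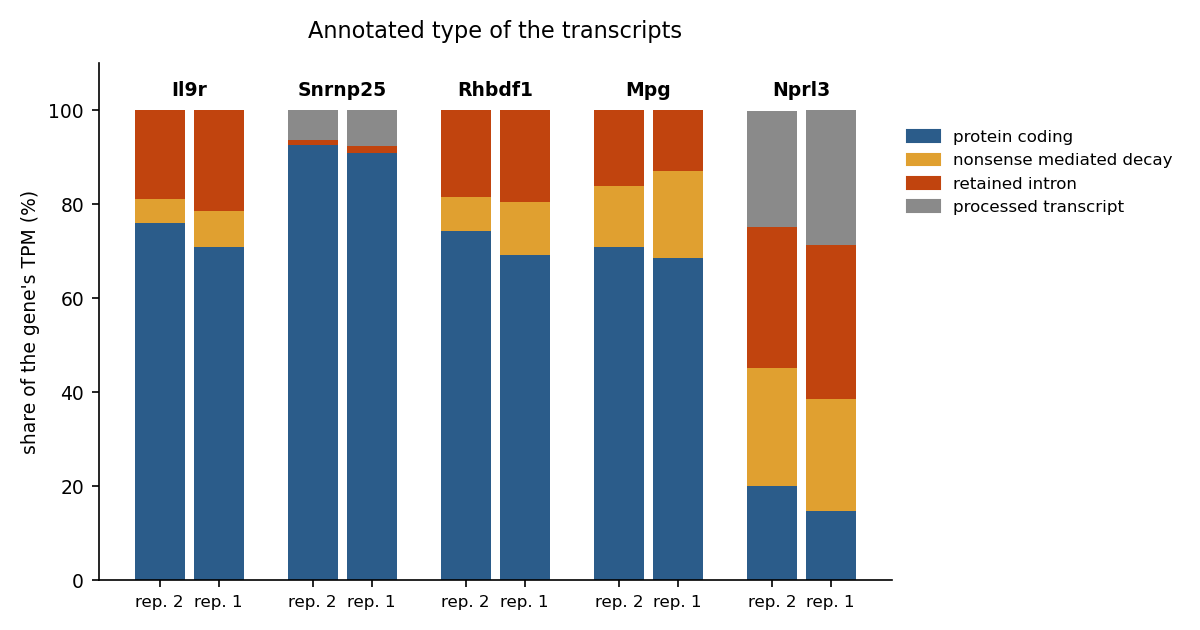
Share of each flanking gene's TPM (%) by annotated transcript type, for replicate 2 (left bar) and replicate 1 (right bar) of each gene. Nprl3 has 20% and 14.7% in protein-coding transcripts in these libraries, and the other 4 genes have between 68.6% and 92.7%.

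Of the 39 transcript models, 33 had counts in at least 1 library and 30 in both. Il9r was split between 2 coding transcripts, Il9r-202 with 44.84% in replicate 2 and 45.34% in replicate 1, and Il9r-205 with 30.47% and 24.91% in the same libraries. Il9r-203, which keeps intron 2, had 18.96% in replicate 2 and 21.37% in replicate 1. The decay transcript Il9r-201 averaged 6.40% and the coding Il9r-204 averaged 0.645%. Snrnp25 was nearly all Snrnp25-201, with 90.04% in replicate 2 and 88.44% in replicate 1. Its processed transcript Snrnp25-205 averaged 6.95%, and Snrnp25-204, Snrnp25-203 and Snrnp25-202 averaged 2.29%, 1.27% and 0.255%.

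Rhbdf1 was led by Rhbdf1-201, with 68.85% in replicate 2 and 69.19% in replicate 1. Rhbdf1-205, a retained-intron transcript that reads through 6 whole introns, averaged 9.87 ± 1.5% (SD, n = 2), Rhbdf1-208 9.13 ± 2.89% and Rhbdf1-204 6.88 ± 2.58%. Rhbdf1-206 and Rhbdf1-203 had 5.46% and 4.74% in replicate 2 and 0 counts in replicate 1, and Rhbdf1-202, Rhbdf1-207 and Rhbdf1-209 had 0 counts in both. Mpg was led by Mpg-201, with 70.92% in replicate 2 and 68.63% in replicate 1. Mpg-204, which runs on into intron 2, had 16.15% in replicate 2 and 13% in replicate 1. The decay transcripts Mpg-202 and Mpg-203 averaged 10.6% and 5.05%.

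Borders of kept introns are shown for some of the retained-intron transcripts of Il9r, Rhbdf1, Mpg and Nprl3, as examples of models that add to the retained-intron shares. For Rhbdf1 the larger such model, Rhbdf1-205 with 9.87%, is not shown. The capitals are the first or last 2 bases of the intron. Intron numbers are those of Il9r-202, Rhbdf1-201, Mpg-201 and Nprl3-201, and the letters are read from GRCm38.
Il9r-203, start of intron 2, chr11:32195043-32195102, minus strand: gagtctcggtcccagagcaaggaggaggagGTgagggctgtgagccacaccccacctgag
Il9r-203, end of intron 2, chr11:32194708-32194767, minus strand: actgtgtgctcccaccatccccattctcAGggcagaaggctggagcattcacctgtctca
Rhbdf1-204, start of intron 16, chr11:32210628-32210687, minus strand: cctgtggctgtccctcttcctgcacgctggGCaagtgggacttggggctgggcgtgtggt
Rhbdf1-204, end of intron 16, chr11:32210522-32210581, minus strand: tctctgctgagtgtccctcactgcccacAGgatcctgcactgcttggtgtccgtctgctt
Mpg-204, start of intron 2, chr11:32227920-32227979, plus strand: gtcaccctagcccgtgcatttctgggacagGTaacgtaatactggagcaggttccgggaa
Nprl3-206, start of intron 9, chr11:32237270-32237329, minus strand: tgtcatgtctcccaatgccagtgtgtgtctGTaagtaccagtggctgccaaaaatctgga
Nprl3-206, end of intron 9, chr11:32236888-32236947, minus strand: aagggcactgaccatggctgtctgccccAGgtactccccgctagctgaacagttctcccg
Nprl3-215, end of intron 11, chr11:32234067-32234126, minus strand: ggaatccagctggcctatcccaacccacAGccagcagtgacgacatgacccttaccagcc
Il9r-203 holds 335 intronic bases, Rhbdf1-204 106, Mpg-204 448, Nprl3-206 382 and Nprl3-215 305. The borders begin with GT or end with AG, the usual letters of spliced introns, except that intron 16 in Rhbdf1-204 begins with GC.

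No single transcript dominated Nprl3. Its leading transcript was Nprl3-201, the coding model, in replicate 2 and Nprl3-215, a retained-intron model, in replicate 1. Nprl3-201 had 19.43% (1.38 TPM) in replicate 2 and 14.70% (1.09 TPM) in replicate 1. Nprl3-215 had 16.83% (1.19 TPM) in replicate 2 and 20.10% (1.5 TPM) in replicate 1. Averaged over the libraries, the leading share was 19.8%, at percentile 0.380 of the 6057 genes, whose median was 66.5%. Nprl3 has 16 annotated transcripts and those genes were not matched for that number, which itself limits how small a leading share can be. By estimated counts Nprl3-201 led in both libraries, with 33.3% in replicate 2 and 26.2% in replicate 1, at percentile 1.14.

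Next came the decay transcripts Nprl3-213 with 12.3 ± 1.22% and Nprl3-205 with 11.3 ± 0.219% (SD, n = 2). Nprl3-207 averaged 9.20%, Nprl3-206 8.55%, Nprl3-210 8.43% and Nprl3-204 5.31%. Smaller shares were 3.70% in Nprl3-203, 3.12% in Nprl3-209, 1.38% in Nprl3-214, 0.900% in Nprl3-211 and 0.260% in Nprl3-202, which had counts in replicate 2 alone. Nprl3-208, Nprl3-212 and Nprl3-216 had 0 counts in both libraries.

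Part of the Nprl3 level was assigned to models that begin well inside the gene. The 7 transcripts that start more than 1 kb inside it held 47.1% of its TPM in replicate 2 and 52.4% in replicate 1. By estimated counts the same 7 held 18.6% in replicate 2 and 26.7% in replicate 1. TPM divides by length: Nprl3-203 has 3531 bases and the other 6 have between 411 and 762 bases. Rhbdf1 had 21.8 ± 3.06% of TPM in 4 such transcripts (SD, n = 2) and Snrnp25 had 1.27% in 1. Il9r and Mpg had no annotated transcript of this kind. A model that starts inside the gene need not be a start of transcription, and where transcription starts was not tested.

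Nprl3-203 is shown because it is the one of these models with many exons and a first exon of its own. It begins 11.3 kb inside the gene, in intron 2 of Nprl3-201, with a first exon of 321 bases that shares 0 bases with Nprl3-201, and 11 of its 12 exons share an edge with exons of Nprl3-201. A GATA hexamer (AGATAA) stands in capitals. It describes the letters and not measured binding. At least 1 GATA hexamer was held by 16.6% of the 250-base promoters. Those are bases before a start, whereas the 120 bases below lie within a transcript, so that share is not a matched background.
Nprl3-203 first 120 bases, chr11:32256294-32256413, minus strand: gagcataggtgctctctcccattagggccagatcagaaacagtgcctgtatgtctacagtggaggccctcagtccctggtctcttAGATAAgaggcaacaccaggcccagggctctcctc
This transcript had 226 counts and 0.170 TPM in replicate 2, and 306 counts and 0.380 TPM in replicate 1. It held 2.36% of Nprl3 in replicate 2 and 5.04% in replicate 1. Nprl3-214 begins in intron 3, Nprl3-209 in intron 8 and Nprl3-215 in intron 11, and each of their first exons also overlaps an exon of Nprl3-201.

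**Figure D4:**
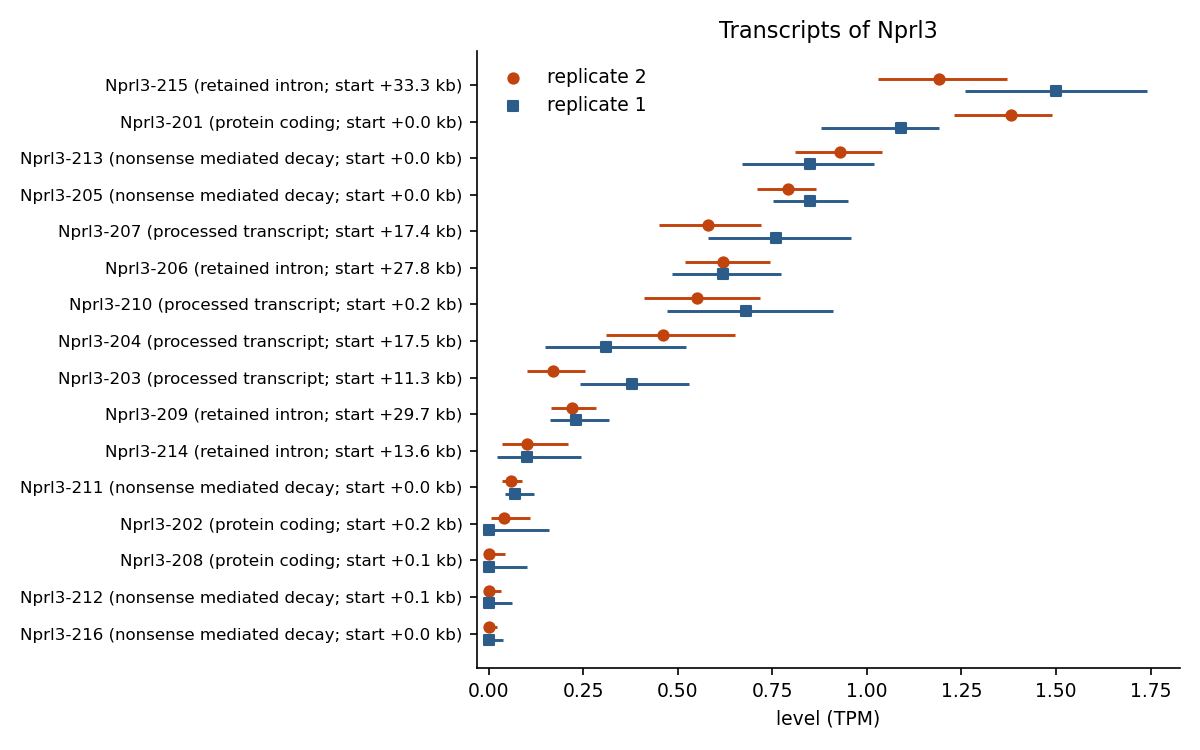
Level of the 16 annotated Nprl3 transcripts (TPM) in replicate 2 (circles) and replicate 1 (squares), with lines for the authors' interval, whose level is not stated in the sources used here; the name gives the type and the start relative to the gene's start. Nprl3-201 leads in replicate 2 at 1.38 TPM and Nprl3-215 in replicate 1 at 1.5 TPM, and several models that start inside the gene are near them.

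Mpg and Nprl3 share exonic sequence on opposite strands, which would limit both if strand was not used in the counting. The overlap is 1340 bases, 35.7% of the 3752 exonic bases of Mpg and 17.7% of the 7572 of Nprl3. The coding models Mpg-201 and Nprl3-201 share 738 bases, and Nprl3-203 and Nprl3-213 each share 1127 bases with Mpg. Signal tracks were made for each strand per the deposited readme, but the strand setting of the counting is not given in the sources used here. If strand was not used, reads from the shared bases cannot be assigned to Mpg or Nprl3. The posterior standard deviation of 0.00 for both is the authors' own estimate of how far their reads can be exchanged with other genes. By that estimate no reads of Mpg or Nprl3 were exchanged with another gene, and the estimated counts of both were whole numbers. Il9r, Snrnp25 and Rhbdf1 have no such overlap with another flanking gene.

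Each flanking gene was also set beside the other genes of its pathway, from lists chosen with earlier results of these data known. In each of the 5 lists that contain a flanking gene, that gene had the highest mean TPM, with limits given for Nprl3 and Rhbdf1. Counts below of genes higher or lower in replicate 2 use the adjusted p of the exact binomial test alone, which called 31.5% of all genes higher and 30.5% lower.

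Nprl3 led GATOR1, with 7.27 TPM on average against 5.08 TPM for Nprl2 and 4.56 TPM for Depdc5, the other 2 subunits. The Nprl3 level includes the models that start inside it. Its transcripts from the gene start alone held 3.75 TPM in replicate 2 and 3.54 TPM in replicate 1, below the whole-gene levels of Nprl2 and Depdc5. No such models were taken out of Nprl2 or Depdc5, so a part of 1 gene is set against the whole of the others. All 3 reached 1 TPM in both libraries, 2 of 3 were higher in replicate 2 and none was lower. GATOR2, which counters GATOR1, had 4 of 5 genes at 1 TPM or more in both libraries and a median of 4.49 TPM, with 2 higher and 3 lower in replicate 2. Sec13, shared with the nuclear pore and the COPII coat, had 14.8 TPM in replicate 2 and 25.9 TPM in replicate 1. KICSTOR, which anchors GATOR1 to lysosomes, was lowest, with 2 of 4 genes at 1 TPM or more, a median of 1.27 TPM, and 3 of 4 lower in replicate 2.

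Snrnp25 led the 7 U11/U12 protein genes, whose median was 6.29 TPM and of which 6 reached 1 TPM in both libraries. Its 34.6 TPM stood above Zcrb1 at 10.4 TPM and Snrnp48 at 7.70 TPM. Zmat5 averaged 6.29 TPM, Rnpc3 2.88 TPM and Pdcd7 2.52 TPM. By the adjusted p, 4 of 7 were higher and 2 lower in replicate 2. Snrnp35 was the called gene of this list, with 0.410 TPM in replicate 2 and 1.04 TPM in replicate 1 and a log2 ratio of -1.04.

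Mpg led the 11 DNA glycosylase genes, whose median was 1.91 TPM and of which 6 reached 1 TPM in both libraries. Its 8.96 TPM stood above Tdg at 3.12 TPM and Nthl1 at 2.56 TPM. Mbd4 averaged 2.15 TPM, Neil3 2.00 TPM and Ung, which removes uracil, 1.91 TPM. Ogg1 averaged 1.09 TPM and Smug1 0.625 TPM, while Neil1 averaged 0.190 TPM, Mutyh 0.155 TPM and Neil2 had 0 counts in both libraries. Of the 10 tested, 4 were higher and 4 lower in replicate 2. The genes of the later steps of base excision repair were all at 1 TPM or more, from 5.25 TPM for Lig3 to 19.0 TPM for Fen1, with a median of 9.20 TPM. Of these 7, 2 were higher and 4 lower in replicate 2.

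Rhbdf1 led the 10 rhomboid family and iRhom partner genes, with 5.62 TPM against 5.50 TPM for Parl, the mitochondrial rhomboid protease, a gap inside the spread of Parl (SD 1.52, n = 2). The paralog Rhbdf2, which encodes iRhom2, had 1.65 TPM in replicate 2 and 2.11 TPM in replicate 1, below Rhbdf1 in both. Of the iRhom partners, Adam17 averaged 2.19 TPM and Frmd8, which stabilises iRhoms, 3.59 TPM. The list had a median of 2.03 TPM, 6 of 10 genes at 1 TPM or more in both libraries, and Rhbdl2 at 0 counts in both. Of the 9 tested, 2 were higher and 2 lower in replicate 2.

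Il9r led the 9 interleukin 9 signalling genes, but its partner chain was nearly absent. Il2rg had 26 counts and 0.05 TPM in replicate 2, and 15 counts and 0.04 TPM in replicate 1. Il9, the ligand gene, had 0 counts in both libraries. Kinase and STAT genes were present: Stat5a averaged 6.17 TPM, Jak1 6.02 TPM, Stat3 5.60 TPM, Stat5b 4.48 TPM and Jak3 1.94 TPM. In all, 7 of 9 genes reached 1 TPM in both libraries, and the median of the 9 was 4.48 TPM. Of the 8 tested, 4 were higher and 2 lower in replicate 2.

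**Figure D5:**
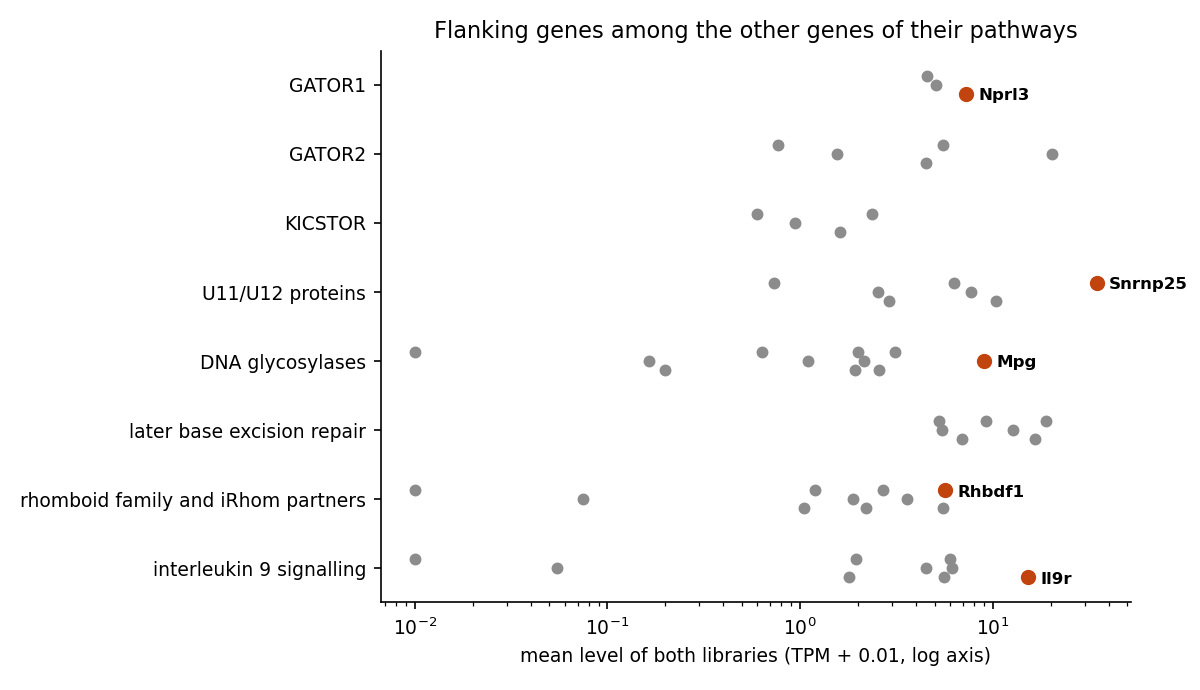
Mean level of both libraries (TPM + 0.01, log axis) for each gene of 8 pathway lists, with the flanking genes named and in red; points are shifted vertically for legibility. Each flanking gene is the rightmost point of its list, by a wide gap for Snrnp25, at 34.6 TPM against 10.4 TPM for Zcrb1, and by almost none for Rhbdf1, at 5.62 TPM against 5.50 TPM for Parl.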

How the data were processed

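The deposited readme names mm10 and GENCODE M4. Neither aligner nor quantification program is given in the sources used here. For each gene and transcript, the tables deposited by the authors hold an estimated count, TPM, FPKM and posterior means, and also the percent of the gene's TPM in each transcript. FPKM as deposited by the authors served only as an alternative to TPM. Names and coordinates (1-based) came from GENCODE M21 on GRCm38, matched by identifier without version for 42462 of 43346 gene rows. All 39 transcripts of the 5 genes had the same length in both annotations. Unmatched rows and tRNA rows stayed in the TPM totals.

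The label fields gave 1 group, so levels are means with SD of 2 libraries. Estimated counts were rounded, scaled by TMM (edgeR 4.0.16, R 4.3.3) and compared by an exact two-sided binomial test with Benjamini-Hochberg adjustment over genes that reached 10 counts in either library, called at an adjusted p under 0.05 and 2-fold. Log2 ratios had 0.5 counts added, and intervals are exact (Clopper-Pearson, 95%) and cover counting error only, as does the floor of 3 counts, because the reads carry no molecular identifiers and need not be independent molecules. The test was tested on simulated data with counting error and planted differences only, so other spread between libraries was not covered. Expressed means 1 TPM or more in both libraries. Promoter letters came from RefSeq (GRCm38.p6) and other letters from the GRCm38 genome.

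The genes named were the 5 flanking genes with all their transcripts, the alpha globin cluster, protein-coding genes within 500 kb of the start of Hba-x, the members of 8 pathway lists and 2 lists of cell markers, and the 2 genes nearest in level to each flanking gene. The flanking genes and the lists were chosen with earlier results of these data known. A few genes of these lists are counted in them but not reported here by name. Alternatives were other TPM thresholds, FPKM or posterior means, rescaled TPM, DESeq2 1.42.0 size factors, total counts, other count minimums, a 1.5-fold limit and each library left out.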

Additional observations from a re-analysis of the deposited data

How the results depend on the processing

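With 2 libraries of 1 condition, no result compares conditions, and an SD of 2 values is uncertain. No paired analysis was possible because there is 1 group. The counts of 5 flanking genes expressed and 0 called were the same under every alternative run. Over all genes, 992 were called, against 395 at a minimum of 100 counts and 2463 at 1.5-fold.

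For Il9r, Snrnp25, Rhbdf1, Mpg and Nprl3 in this order, the log2 ratio turned to -0.34, -0.03, -0.02, -0.02 and -0.07 by TPM, whose median over expressed genes was -0.256. Percentiles by estimated counts, not per length, were 95.6, 92.0, 87.6, 85.5 and 83.0, and among the 16125 genes with counts above 0 they were 93.3, 97.3, 80.1, 87.7 and 84.7. With either library left out, percentiles ranged from 94.8 to 95.0, from 97.7 to 98.1, from 83.8 to 86.5, from 90.0 to 91.6 and from 87.7 to 89.4. The leading transcript's share then ranged from 44.8% to 45.3%, from 88.4% to 90.0%, from 68.8% to 69.2%, from 68.6% to 70.9% and, for Nprl3-215, from 16.8% to 20.1%, though in replicate 2 Nprl3-201 led with 19.43%. By posterior mean TPM the Rhbdf1 share was 67.7% and its level 5.74 TPM.

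Chosen after seeing the data, the share of Nprl3 in transcripts that start over 1 kb inside the gene was 49.8% of TPM, 22.6% of estimated counts and 47.1% to 52.4% with either library left out. Its transcript types also moved by estimated counts, as given with those shares. Nprl3 over Rhbdf1 was 0.528 by merged exons, against 1.29 by TPM; the cause was not tested.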
